A study of Mus musculus with 18 samples.

Results

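The transcription factors that specify and maintain pancreatic beta cells were followed as 9 genes: Mafa, Pdx1, Neurod1, Nkx6-1, Nkx2-2, Pax6, Isl1, Foxa1 and Foxa2. Each was read from the probe set that the array's annotation assigns to that gene alone, and all 9 were among the 22180 genes measured in this way. The samples were total RNA of whole pancreatic islets from male and female C57BL/6 mice, 16 weeks old, on 18 single-colour arrays in 6 groups of 3. Knockouts carried RIPCre, in which the promoter of the rat insulin gene expresses Cre recombinase and so aims it at beta cells, together with TRAF3loxP/loxP alleles (TRAF3 knockout) or TRAF2loxP/loxP alleles (TRAF2 knockout). Controls were floxed littermates, and the labels give neither the floxed gene nor whether they carried Cre, so an effect of the Cre transgene itself cannot be told apart from that of the deletion. The 6 groups were TRAF3 knockout, TRAF2 knockout and control on high-fat diet (HFD, 45% of energy from fat for 8 weeks, begun at 8 weeks of age) and the same 3 genotypes on chow. The series asks what constitutive activity of the NF-κB inducing kinase (NIK) does in beta cells, and its design text writes TRAF2 for both lines, so the genotypes here follow the sample labels.

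TRAF2 and TRAF3 are adaptor proteins that hold down the abundance of NIK, which drives non-canonical NF-κB signalling. The 9 transcription factors form a network that regulates its own members as well as the genes for insulin, glucose sensing and secretion. Foxa1 and Foxa2 are forkhead pioneer factors that open chromatin early in pancreas development, Pdx1 drives formation of the pancreas and later activates the insulin genes, and Nkx6-1 and Nkx2-2 hold beta cells apart from other endocrine cells. Pax6 and Isl1 act in all islet endocrine types, Neurod1 binds E-boxes in the insulin promoters, and Mafa is the activator of insulin transcription that marks mature rodent beta cells.

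Promoter windows running from 250 bases before to 50 bases after the annotated start were matched to 8 of the 9 genes, 11 windows in all, from RefSeq on GRCm38.p6. The 5 windows below are shown because they belong to genes that fell together in chow TRAF3 knockouts. Mafa, which fell with them, was the gene without a window. Where a gene has several windows, the one given was chosen after the matches were seen, as that with a match nearest the start. Capitals mark matches, on either strand, to the E-box CANNTG or to the MAF core TGCTGA, which reads TCAGCA on the other strand.
Pdx1, chr5:147269847-147270146, plus strand: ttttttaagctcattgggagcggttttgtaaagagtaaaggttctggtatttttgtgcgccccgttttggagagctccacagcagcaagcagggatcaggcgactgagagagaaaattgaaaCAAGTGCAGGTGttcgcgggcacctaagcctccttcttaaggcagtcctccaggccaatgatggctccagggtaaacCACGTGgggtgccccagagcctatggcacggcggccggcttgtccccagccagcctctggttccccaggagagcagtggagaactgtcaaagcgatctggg
Nkx6-1, chr5:101664662-101664961, minus strand: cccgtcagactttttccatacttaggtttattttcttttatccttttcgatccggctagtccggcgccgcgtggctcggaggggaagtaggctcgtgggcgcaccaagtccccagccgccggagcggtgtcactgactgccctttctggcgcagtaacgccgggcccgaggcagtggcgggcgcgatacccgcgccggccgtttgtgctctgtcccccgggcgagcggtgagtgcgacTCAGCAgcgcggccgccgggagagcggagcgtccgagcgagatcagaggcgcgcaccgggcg
Nkx2-2, chr2:147186353-147186652, minus strand: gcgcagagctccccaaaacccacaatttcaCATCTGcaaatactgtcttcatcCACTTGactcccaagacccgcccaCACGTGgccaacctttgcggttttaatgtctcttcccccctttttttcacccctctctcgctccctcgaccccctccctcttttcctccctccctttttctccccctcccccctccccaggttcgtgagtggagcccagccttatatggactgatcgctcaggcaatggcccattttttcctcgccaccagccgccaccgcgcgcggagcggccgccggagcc
Pax6, chr2:105682213-105682512, plus strand: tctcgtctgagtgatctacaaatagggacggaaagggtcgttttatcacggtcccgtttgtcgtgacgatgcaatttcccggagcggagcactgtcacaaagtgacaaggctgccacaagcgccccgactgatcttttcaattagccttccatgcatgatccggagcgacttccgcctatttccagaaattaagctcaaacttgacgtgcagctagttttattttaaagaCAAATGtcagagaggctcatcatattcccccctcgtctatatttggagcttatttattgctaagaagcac
Foxa2, chr2:148045899-148046198, minus strand: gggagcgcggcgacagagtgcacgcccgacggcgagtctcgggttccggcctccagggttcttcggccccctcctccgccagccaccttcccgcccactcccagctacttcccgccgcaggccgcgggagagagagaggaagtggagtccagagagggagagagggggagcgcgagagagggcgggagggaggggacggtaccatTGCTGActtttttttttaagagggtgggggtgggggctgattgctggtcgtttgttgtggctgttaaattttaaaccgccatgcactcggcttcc
The windows of Pdx1 and Nkx2-2 each held 3 E-boxes, of which 2 in Pdx1 lay end to end, with first bases at positions -128 and -122 from the start. The window of Pax6 held 1 E-box, and those of Nkx6-1 and Foxa2 held 1 MAF core each, at positions -12 and -45. No match overlapped another. An E-box was found in 72.3% and a MAF core in 19.5% of 32851 mouse promoters of the same length, so these matches are common ones. A forkhead core, TGTTTAC, was in 3.65% of all promoters and in 1 of the 11 windows, that of Foxa1, at position -141. The kappaB motif, GGGA and TTCC parted by any 2 bases (1.47% of all promoters) and the homeodomain core TAATTA (5.29%) were in none of the 11 windows.

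All values are log2 expression from the robust multi-array average (RMA), so a difference of 1 is a 2-fold change, and values of different genes are not set against each other. The 6 granule and vesicle genes that all islet endocrine cells express averaged 10.78 to 11.77 per array, and 9 acinar genes averaged 8.80 to 11.22, so every islet preparation also carried exocrine RNA. Traf2 read 6.90 to 7.15 in HFD TRAF2 knockouts, against 6.46 to 7.03 in HFD controls, and 7.22 to 7.50 in chow TRAF2 knockouts, against 7.04 to 7.34 in chow controls. Its probe set covers the whole transcript of whole islets, and so checks nothing about the deleted part. By Xist and Y-linked genes, HFD knockout groups held 2 female arrays of 3 and HFD controls 3, while each chow group held 1. Chow TRAF2 knockout 1 and HFD TRAF3 knockout 2 stood apart by the summed lymphocyte markers, with scores of 2.10 and 2.02 where the other 16 arrays lay at 1.30 or lower.

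**Figure D1:**
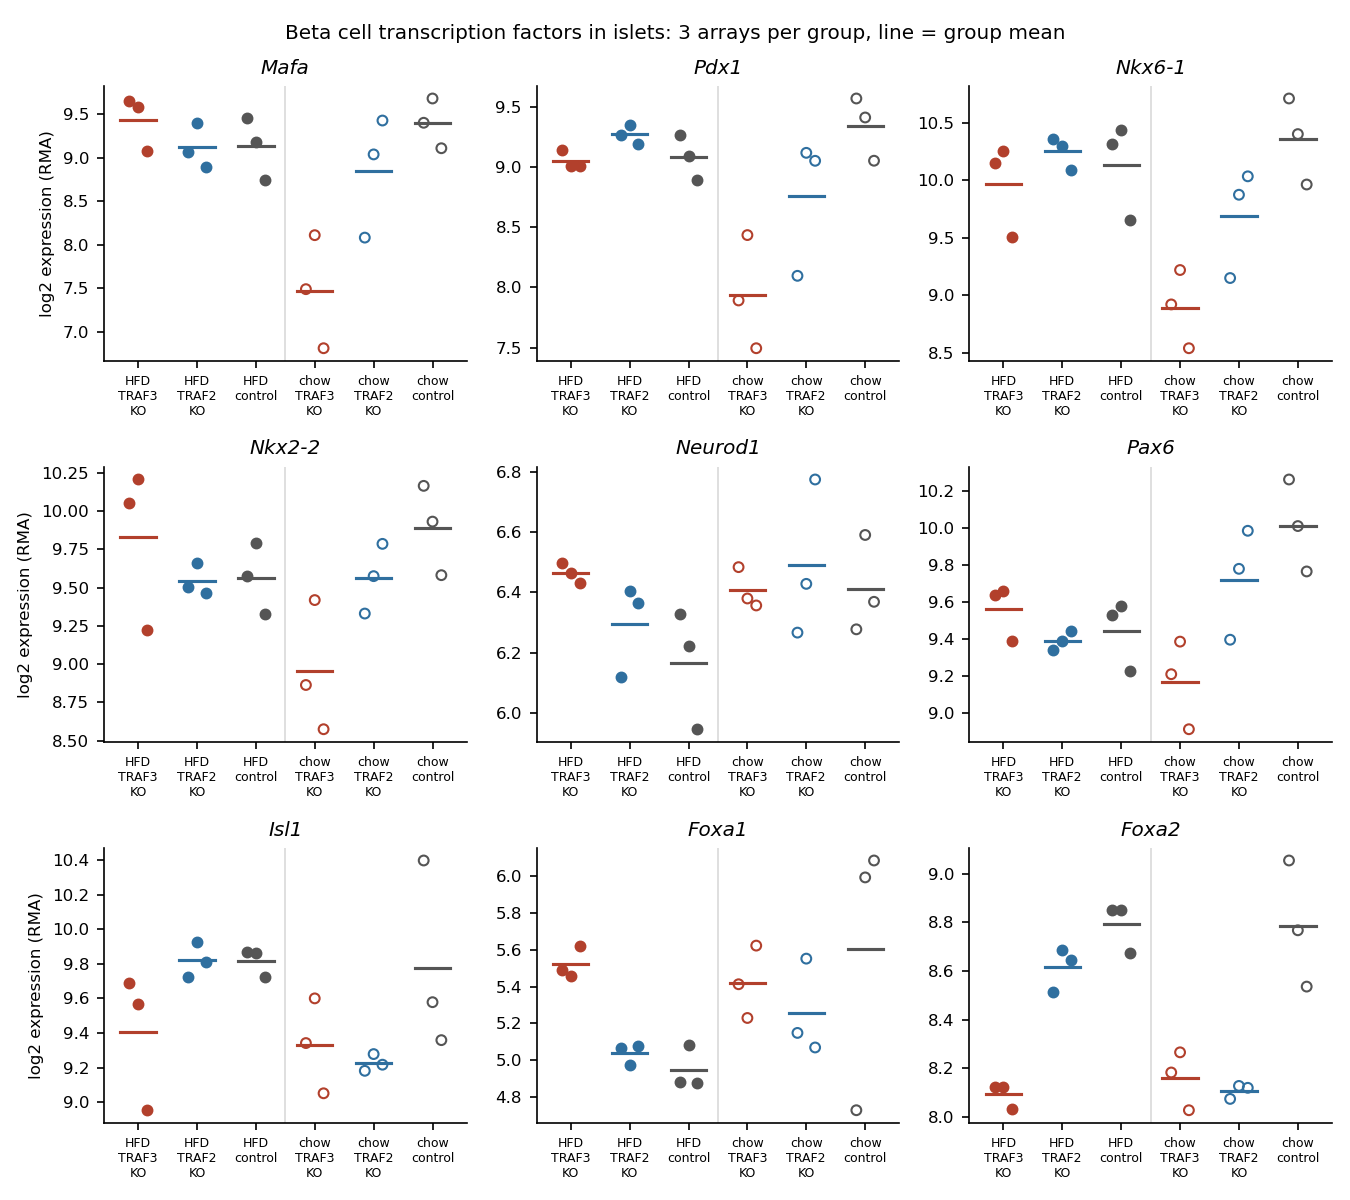
Log2 expression (RMA, vertical axis, scaled separately for each gene) of the 9 transcription factors in the 6 groups, with 1 point per array, a line at the group mean, filled points for HFD and open points for chow. The chow TRAF3 knockouts have the lowest group mean for Mafa, Pdx1 and Nkx6-1, with chow TRAF2 knockout 1 within their range, and Foxa2 splits into a low band from 8.03 to 8.27 (TRAF3 knockouts on either diet and chow TRAF2 knockouts) and a high band from 8.51 upwards.

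On chow, the TRAF3 knockout islets had less of 6 of the 9 factors: Mafa, Pdx1, Nkx6-1, Nkx2-2, Pax6 and Foxa2 all fell. No member rose, and for each of the 6 the 3 knockout arrays lay below every control array. The falls ranged from 1.54-fold in Foxa2 to 3.81-fold in Mafa. Of all 22180 genes, 11% passed the test in this comparison, 6.33% higher and 4.69% lower. A total of 15.1% of all genes separated the groups in that direction. The median difference of the 9 genes was -0.84, against -0.01 for all genes. In RNA of whole islets, fewer beta cells and less of a transcript per beta cell cannot be told apart.

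Among the activators of insulin transcription, Mafa read 7.49, 8.11 and 6.81 in chow TRAF3 knockouts, against 9.40, 9.68 and 9.11 in chow controls. The highest knockout array was therefore well below the lowest control array. Mafa fell by 1.93 ± 0.34 on the log2 scale (SE, 95% interval -2.65 to -1.21, adjusted p = 0.00307, limma). Pdx1 read 7.89, 8.44 and 7.49 in chow TRAF3 knockouts, against 9.57, 9.41 and 9.05 in chow controls. Here too the groups were apart, and Pdx1 was 2.65-fold lower (-1.41 ± 0.25, adjusted p = 0.00341). The order of the 3 knockout arrays was the same for both genes, with array 3 lowest and array 2 highest.

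The homeodomain factors of beta cell identity moved with them. Nkx6-1, which also represses alpha cell genes, read 8.92, 9.22 and 8.54 in chow TRAF3 knockouts, against 10.71, 10.40 and 9.96 in chow controls. It was 2.77-fold lower (-1.47 ± 0.28, adjusted p = 0.00461), again with no overlap. Nkx2-2 read 8.86, 9.42 and 8.57 in chow TRAF3 knockouts, against 10.17, 9.93 and 9.58 in chow controls and its groups came close without overlapping. It was 1.92-fold lower (-0.94 ± 0.25, adjusted p = 0.0254). That call was lost without chow TRAF3 knockout 1 (adjusted p = 0.0889) or 3 (0.144), and without chow control 1 (0.116) or 2 (0.0696), as well as in a fit of these 6 arrays alone (0.0511).

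Pax6, a paired-domain factor that all islet endocrine cells need, read 9.21, 9.38 and 8.91 in chow TRAF3 knockouts, against 10.26, 10.01 and 9.76 in chow controls. It was 1.80-fold lower (-0.84 ± 0.17, adjusted p = 0.00639). Foxa2 read 8.18, 8.27 and 8.03 in chow TRAF3 knockouts, against 9.05, 8.77 and 8.54 in chow controls. Its fall was the smallest of the 6 but had a narrow error (-0.63 ± 0.12, adjusted p = 0.00553). That error rests on the spread pooled over the 6 groups (SD 0.13), while the chow controls alone had an SD of 0.26. In a fit of these 6 arrays alone the SE was 0.16 and the adjusted p of Foxa2 was 0.0519.

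The other 3 factors did not pass the test on chow. Isl1, a LIM-homeodomain factor, read 9.34, 9.60 and 9.05 in chow TRAF3 knockouts, against 10.40, 9.58 and 9.36 in chow controls, and the groups overlapped (-0.45 ± 0.23, 95% interval -0.94 to 0.04, adjusted p = 0.258). Foxa1 read 5.41, 5.23 and 5.62 in chow TRAF3 knockouts, against 4.73, 5.99 and 6.09 in chow controls. The controls alone spanned more than 1 log2 unit, and the difference was -0.18 ± 0.26 (95% interval -0.73 to 0.37). Without chow control 1 it was -0.62 and passed (adjusted p = 0.0327), and without chow control 2 or 3 it was 0.01 or 0.06. Foxa1 was also dim, with a mean of 5.30 over the 18 arrays.

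The probe set assigned to Neurod1 alone read 6.48, 6.38 and 6.36 in chow TRAF3 knockouts, against 6.28, 6.59 and 6.37 in chow controls (-0.01 ± 0.14, 95% interval -0.31 to 0.30). Whether it measures the Neurod1 transcript is uncertain. Neurod1 is annotated on the minus strand, while 33 of the 40 probe sets nearest to this one by number belong to genes of the plus strand, and 95.8% of 17913 probe sets followed the strand of their neighbours. A second probe set carries the symbols Neurod1 and Cerkl and can be assigned to neither alone. Of the 40 probe sets nearest to it by number, 39 belong to genes of the minus strand, where Neurod1 is annotated. That probe set averaged 9.96 ± 0.22 in chow TRAF3 knockouts and 10.31 ± 0.21 in chow controls (SD, n = 3 each), with a difference of -0.35 ± 0.15 (SE) and an adjusted p of 0.237 over all 41345 probe sets. Neither reading of Neurod1 passed the test in this comparison.

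**Figure D2:**
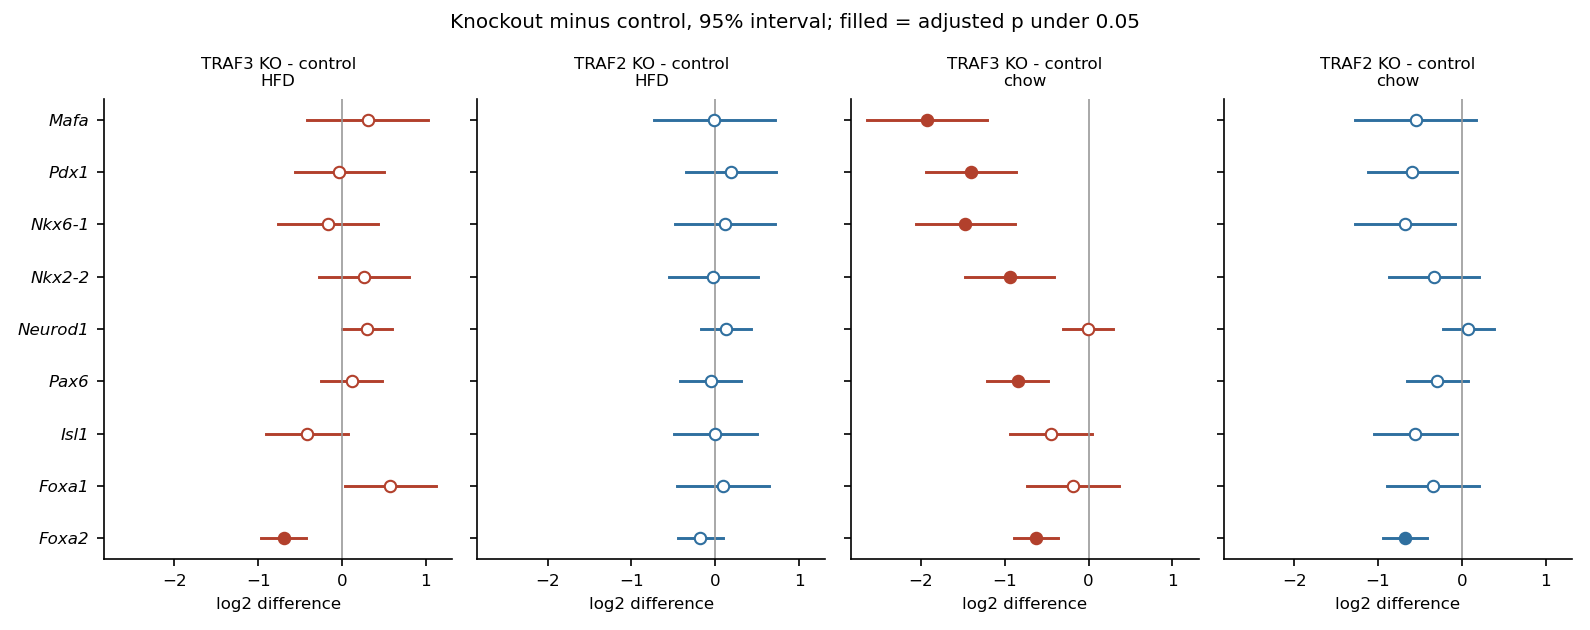
Log2 difference between knockout and control (horizontal axis) for the 9 transcription factors, with 95% intervals from limma, in 4 panels: TRAF3 and TRAF2 knockout on HFD, then TRAF3 and TRAF2 knockout on chow. Filled points passed an adjusted p of 0.05: 6 genes for the TRAF3 knockout on chow, and Foxa2 alone for the TRAF3 knockout on HFD and the TRAF2 knockout on chow.

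Markers of other cells and of endocrine cells as a whole differed between the same chow groups. The score of the 6 pan-endocrine genes (mean deviation from each gene's mean over 18 arrays) lay between -0.64 and -0.18 in chow TRAF3 knockouts, against -0.00 to 0.27 in chow controls. Of these 6 genes, 3 fell: the granule proteins Chga (-0.43 ± 0.12) and Scg2 (-0.67 ± 0.17) and the convertase inhibitor Pcsk1n (-1.06 ± 0.20). For this and the marker counts that follow, 4.69% of all genes fell and 6.33% rose. Beta cells make all 6, so the score is not independent of beta cells. The alpha marker score lay between -0.60 and -0.23 in chow TRAF3 knockouts, against -0.11 to 0.54 in chow controls, with 1 of 4 genes called, Ttr, which fell and which also stands among the target genes below. The PP cell score was lower in all 3 chow TRAF3 knockouts, at -0.51 to -0.09, against -0.08 to 0.30 in chow controls (0 of 2 genes called). The delta score overlapped, at -0.58 to -0.05 in chow TRAF3 knockouts, against -0.14 to 0.32 in chow controls (0 of 3 called). The ductal score lay between 0.47 and 1.27 in chow TRAF3 knockouts, against -1.20 to 0.47 in chow controls, with chow control 1 lowest. Of the 8 ductal genes, 1 rose (Anxa3, 2.71 ± 0.53). The macrophage score lay between -0.07 and 0.11 in chow TRAF3 knockouts, against -1.11 to -0.86 in chow controls, and 3 of 11 genes rose, Cd68, Cd14 and Fcer1g.

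With the ductal score as a covariate, Mafa (-1.46 ± 0.36), Pdx1 (-1.08 ± 0.27) and Nkx6-1 (-0.93 ± 0.24) still passed in chow TRAF3 knockouts, with adjusted p between 0.0414 and 0.0484. Nkx2-2 (-0.44), Pax6 (-0.52) and Foxa2 (-0.43) no longer did. With the pan-endocrine score as a covariate none of the 6 passed. The differences were then -0.72 ± 0.21 for Mafa (adjusted p = 0.19), -0.58 for Pdx1, -0.46 for Nkx6-1, -0.39 for Foxa2, -0.28 for Pax6 and -0.19 for Nkx2-2. With the acinar score all 6 passed. Over the 18 arrays, which share 1 normalization, Mafa, Pdx1, Nkx6-1, Nkx2-2 and Pax6 ran with the pan-endocrine score at r = 0.827 to 0.888, whereas Foxa2 did so at r = 0.332. With group means removed Foxa2 ran with that score at r = 0.635. Over the 18 arrays Foxa2 also ran with the delta (r = 0.771) and alpha (0.719) scores and opposite to the ductal score (-0.645). The part of cell composition in the falls was not tested beyond these values.

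**Figure D3:**
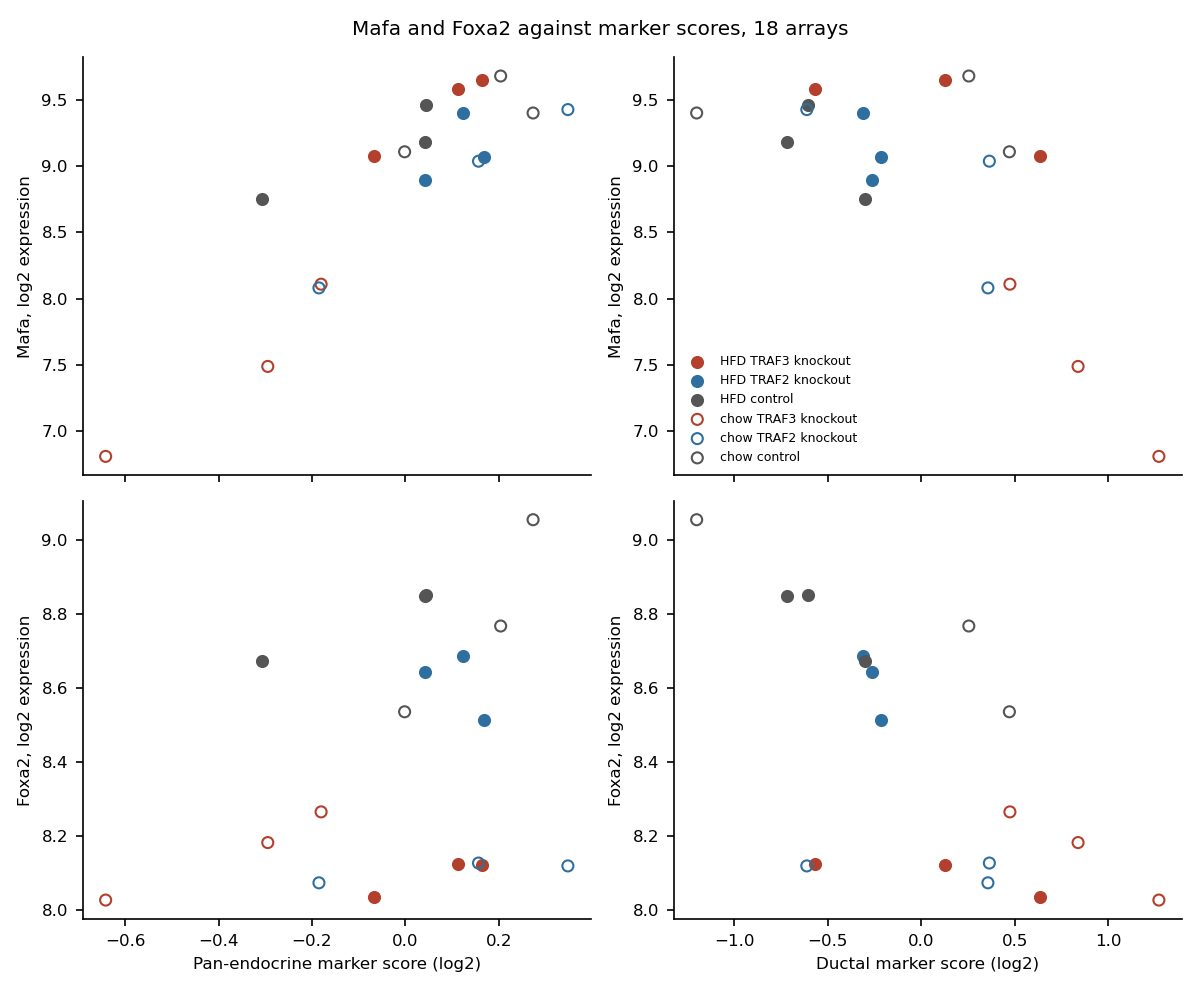
Log2 expression of Mafa (upper row) and Foxa2 (lower row) on each of the 18 arrays against the pan-endocrine marker score (left) and the ductal marker score (right), filled points for HFD and open points for chow. Mafa runs with the pan-endocrine score (r = 0.888), while the 9 arrays with low Foxa2, from 8.03 to 8.27, span pan-endocrine scores from -0.64 to 0.35. Both Mafa (r = -0.699) and Foxa2 (r = -0.645) run opposite to the ductal score.

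On HFD, Foxa2 was the 1 factor that passed the test in TRAF3 knockouts. It read 8.12, 8.12 and 8.03 in HFD TRAF3 knockouts, against 8.85, 8.85 and 8.67 in HFD controls. The groups were clearly apart, and Foxa2 was 1.62-fold lower (-0.70 ± 0.12, 95% interval -0.96 to -0.43, adjusted p = 0.00649). The background in this comparison was 2.52% of genes called, 1.68% higher and 0.848% lower. The Foxa2 call held in 30 of 31 alternative settings, the exception being a fit of the 6 arrays alone (adjusted p = 0.0992). With the ductal score as a covariate the difference was -0.58 ± 0.11 (adjusted p = 0.0067), and with the pan-endocrine score -0.76 ± 0.11 (adjusted p = 0.00296). The ductal score itself ranged from -0.57 to 0.63 in HFD TRAF3 knockouts and from -0.72 to -0.30 in HFD controls. The alpha marker score was lower in all 3 HFD TRAF3 knockouts, at -0.10 to 0.07, against 0.28 to 0.42 in HFD controls, with 0 of its 4 genes called. The delta score was also lower, at -0.16 to 0.01 in HFD TRAF3 knockouts, against 0.23 to 0.38 in HFD controls, with 0 of 3 genes called. The ductal gene Krt8 rose, and the macrophage genes Adgre1 and Mrc1 (2 of 11) and the pericyte gene Acta2 (1 of 8) fell. Foxa2 is also made by other islet endocrine cells, and the part of these markers in its fall was not tested. The alpha and delta scores were also lower in all 3 HFD TRAF2 knockouts, as given below.

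The other 5 factors that had fallen on chow did not pass the test on HFD. Mafa read 9.65, 9.58 and 9.07 in HFD TRAF3 knockouts, against 9.46, 9.18 and 8.75 in HFD controls, and the groups overlapped (0.31 ± 0.34, 95% interval -0.42 to 1.03). Pdx1 read 9.14, 9.01 and 9.01 in HFD TRAF3 knockouts, against 9.27, 9.09 and 8.89 in HFD controls (-0.03 ± 0.25, 95% interval -0.57 to 0.50). The intervals exclude falls of the size seen on chow for both genes. Nkx6-1 (-0.17 ± 0.28), Nkx2-2 (0.26 ± 0.25) and Pax6 (0.12 ± 0.17) had adjusted p between 0.692 and 0.847. Isl1 read 9.69, 9.57 and 8.95 in HFD TRAF3 knockouts, against 9.87, 9.86 and 9.72 in HFD controls, all lower but short of the threshold (-0.42 ± 0.23, adjusted p = 0.436). Foxa1 read 5.49, 5.46 and 5.62 in HFD TRAF3 knockouts, against 4.88, 5.08 and 4.88 in HFD controls, all higher and also short of it (0.58 ± 0.26, adjusted p = 0.302). Of all genes, 7.98% were likewise lower in all 3 HFD TRAF3 knockouts than in every HFD control, and 8.61% were higher. Without chow control 1, whose value enters the shared spread, the Foxa1 difference had an SE of 0.14 and an adjusted p of 0.0295. The probe set of Neurod1 stood at 6.43 to 6.50 in HFD TRAF3 knockouts, against 5.95 to 6.33 in HFD controls (0.30 ± 0.14, adjusted p = 0.34). The probe set shared by Neurod1 and Cerkl differed by 0.34 ± 0.15 (adjusted p = 0.38 by limma over all 41345 probe sets).

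In TRAF2 knockouts on chow, Foxa2 again fell and was the 1 factor to pass. It read 8.07, 8.13 and 8.12 in chow TRAF2 knockouts, against 9.05, 8.77 and 8.54 in chow controls, a 1.60-fold lower level (-0.68 ± 0.12, adjusted p = 0.0277). In this comparison 0.298% of all genes passed, 0.28% higher and 0.018% lower. The macrophage score was higher in all 3 arrays, at -0.78 to 0.45 in chow TRAF2 knockouts, against -1.11 to -0.86 in chow controls, with 0 of 11 genes called, and its part in the fall was not tested. The 2 knockout lines were set against the same control arrays within each diet. The Foxa2 call held in 23 of 31 alternative settings. It was lost without any 1 of the 3 chow TRAF2 knockouts or without chow control 1 or 2. The adjusted p was then between 0.0739 and 0.129, while the difference stayed between -0.80 and -0.54. In a limma fit of the chow TRAF2 knockouts and chow controls alone, the SE was 0.16 and the adjusted p of Foxa2 was 0.671. The call was also lost with every probe set tested (adjusted p = 0.0552) and without the lymphocyte-rich arrays (0.116).

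Of the other 8 factors in chow TRAF2 knockouts, 7 had negative differences, although none passed. The median difference of the 9 genes was -0.55, against -0.01 for all genes. Mafa read 8.08, 9.04 and 9.43 in chow TRAF2 knockouts, against 9.40, 9.68 and 9.11 in chow controls. Array 1 of the knockouts, the lymphocyte-rich one, was far below the others, and the difference was -0.55 ± 0.34 with it and -0.16 without it. That array was also the 1 female array of its group, and its pan-endocrine score was -0.19, against 0.16 and 0.35 in arrays 2 and 3. Pdx1 read 8.10, 9.12 and 9.05 in chow TRAF2 knockouts, against 9.57, 9.41 and 9.05 in chow controls, with the same array lowest (-0.59 ± 0.25, adjusted p = 0.724, and -0.26 without it). Nkx6-1 read 9.15, 9.88 and 10.04 in chow TRAF2 knockouts, against 10.71, 10.40 and 9.96 in chow controls (-0.67 ± 0.28, adjusted p = 0.71, and -0.41 without array 1). Array 1 thus carried much of each of these 3 differences. With the pan-endocrine score as a covariate Nkx6-1 passed (-0.58 ± 0.12, adjusted p = 0.0446). Isl1 read 9.18, 9.28 and 9.22 in chow TRAF2 knockouts, against 10.40, 9.58 and 9.36 in chow controls. All 3 knockouts were lower, by 0.55 ± 0.23 in the mean, without passing (adjusted p = 0.71), and the Isl1 difference was -0.24 without chow control 1. Of all genes, 4.82% separated these groups in that direction.

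On HFD no factor passed the test in TRAF2 knockouts. By limma 0 of 9 passed, 0 had an unadjusted p under 0.05, and 0.252% of all genes passed, 0.243% higher and 0.00902% lower. Mafa read 9.07, 9.40 and 8.90 in HFD TRAF2 knockouts, against 9.46, 9.18 and 8.75 in HFD controls (95% interval of the difference -0.73 to 0.71). Foxa2 read 8.51, 8.69 and 8.64 in HFD TRAF2 knockouts, against 8.85, 8.85 and 8.67 in HFD controls, a difference of -0.18 ± 0.12 with a 95% interval of -0.44 to 0.09. The differences of the other 7 genes lay between -0.05 and 0.19, with 95% intervals as wide as -0.48 to 0.71 (Nkx6-1). The alpha score was -0.13 to 0.13 in HFD TRAF2 knockouts, against 0.28 to 0.42 in HFD controls (0 of 4 genes called). The delta score was 0.05 to 0.18, against 0.23 to 0.38 (0 of 3 called). The PP cell score was -0.05 to 0.06, against 0.13 to 0.19 (0 of 2 called).

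Averaged over both knockouts and both diets, Foxa2 was 1.46-fold lower than in controls (-0.55 ± 0.08, 95% interval -0.71 to -0.38, adjusted p = 0.000746). It was the 1 factor of 9 to pass, in a comparison where 2.8% of all genes passed and 0.96% fell, and it passed in all 31 alternative settings. Mafa (-0.55 ± 0.21), Pdx1 (-0.46 ± 0.15) and Nkx6-1 (-0.55 ± 0.17) had adjusted p of 0.107 to 0.192.

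The knockouts were also set against each other. On chow, Mafa was 2.60-fold lower in TRAF3 knockouts than in TRAF2 knockouts (-1.38 ± 0.34, adjusted p = 0.0481), with 2.01% of all genes called, 1.44% higher and 0.573% lower. It was the 1 factor to pass, and the groups overlapped, since the highest TRAF3 knockout array read 8.11 and the lowest TRAF2 knockout array 8.08. The Mafa call held in 4 of the 18 fits that leave out 1 array. Without chow TRAF2 knockout 1, Mafa, Pdx1 (-1.15), Nkx6-1 (-1.06) and Pax6 (-0.71) all passed. On HFD, 0 of 9 passed by limma and 1.05% of all genes were called. Foxa2 was lower in all 3 HFD TRAF3 knockouts (8.03 to 8.12) than in all 3 HFD TRAF2 knockouts (8.51 to 8.69), as 9.74% of all genes were. Its mean was lower by 0.52 ± 0.12 (adjusted p = 0.0613). Pdx1 (-0.22 ± 0.25) and Isl1 (-0.42 ± 0.23) were likewise lower in all 3 HFD TRAF3 knockouts. Foxa1 (0.49 ± 0.26) and the Neurod1 probe set (0.17 ± 0.14) were higher in all 3, as 8.26% of all genes were.

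Within the TRAF3 knockouts, 4 of the factors passed the test between HFD and chow. Mafa was 3.91-fold higher on HFD than on chow (1.97 ± 0.34, adjusted p = 0.00295) and the groups were far apart, at 9.07 to 9.65 in HFD TRAF3 knockouts, against 6.81 to 8.11 in chow TRAF3 knockouts. Pdx1 was 2.16-fold higher (1.11 ± 0.25, adjusted p = 0.0141), Nkx6-1 2.11-fold (1.08 ± 0.28, adjusted p = 0.0264) and Nkx2-2 1.84-fold (0.88 ± 0.25, adjusted p = 0.0412). None of the 9 fell, where 8.67% of all genes passed, 2.66% higher and 6.01% lower. For Nkx2-2 the groups overlapped, since HFD TRAF3 knockout 3 read 9.22 and chow TRAF3 knockout 2 read 9.42. Pax6 was higher in all 3 HFD arrays but did not pass (0.39 ± 0.17, adjusted p = 0.189), and 10.5% of all genes separated the groups in that direction. Foxa2 differed by -0.06 ± 0.12, with a 95% interval of -0.33 to 0.20. The HFD TRAF3 knockouts held 2 female arrays and the chow TRAF3 knockouts 1, and with a sex score as a covariate Nkx2-2 had an adjusted p of 0.0507. Without the lymphocyte-rich arrays 2 of the 4 passed, and in a fit of the 6 arrays alone 1 did. Over the 18 fits that leave out 1 array, 1 to 4 of the factors passed. Without chow TRAF3 knockout 3, Pdx1 (0.0873), Nkx6-1 (0.141) and Nkx2-2 (0.209) had adjusted p above the threshold. The pan-endocrine score separated these groups, at -0.07 to 0.16 in HFD TRAF3 knockouts, against -0.64 to -0.18 in chow TRAF3 knockouts. With it as a covariate Mafa passed (0.96 ± 0.20, adjusted p = 0.0385), while Pdx1 (0.282), Nkx6-1 (0.482) and Nkx2-2 (0.621) had adjusted p above the threshold. With the ductal score Mafa passed (1.60 ± 0.34, adjusted p = 0.0168), and Pdx1 (0.0651), Nkx6-1 (0.104) and Nkx2-2 (0.156) did not. The alpha marker score also separated these groups, at -0.10 to 0.07 in HFD TRAF3 knockouts, against -0.60 to -0.23 in chow TRAF3 knockouts. Of its 4 genes 1 was called, Ttr, which rose, and the part of the alpha markers was not tested.

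In TRAF2 knockouts, Foxa2 was 1.42-fold higher on HFD than on chow (0.51 ± 0.12, adjusted p = 0.0483), where 1.96% of all genes passed, 0.884% higher and 1.08% lower. The 3 HFD arrays lay between 8.51 and 8.69 and the 3 chow arrays between 8.07 and 8.13. The adjusted p passed in 4 of the 18 fits without 1 array and was 0.18 or lower in the others, and with the sex score it was 0.0655. The macrophage score was 0.87 to 0.93 in HFD TRAF2 knockouts, against -0.78 to 0.45 in chow TRAF2 knockouts, and 4 of 11 genes rose. The stellate score was 0.53 to 0.73 in HFD TRAF2 knockouts, against -0.73 to 0.41 in chow TRAF2 knockouts (Acta2 called of 8), and the delta score 0.05 to 0.18, against -0.27 to 0.03 (0 of 3 called). The ductal gene Krt8 fell. Their part in the Foxa2 difference was not tested. Pdx1 (0.52 ± 0.25), Nkx6-1 (0.57 ± 0.28) and Isl1 (0.60 ± 0.23) were each higher in all 3 HFD TRAF2 knockouts than in all 3 chow TRAF2 knockouts, without passing. Of all genes, 11.7% separated these groups in that direction.

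In controls 0 of 9 factors passed by limma between HFD and chow, where 0.884% of all genes were called. Pax6 read 9.53, 9.58 and 9.22 in HFD controls, against 10.26, 10.01 and 9.76 in chow controls, all lower (-0.57 ± 0.17, adjusted p = 0.119). In that direction 9.42% of all genes separated the groups. Foxa1 read 4.88, 5.08 and 4.88 in HFD controls, against 4.73, 5.99 and 6.09 in chow controls (-0.66 ± 0.26, adjusted p = 0.227). Without chow control 1 the Foxa1 difference was -1.09 and passed (adjusted p = 0.00221). The wide chow control values of Foxa1 come with a ductal score of -1.20 in array 1, the low one, and of 0.25 and 0.47 in the others. Mafa (-0.27 ± 0.34), Pdx1 (-0.26 ± 0.25) and Nkx6-1 (-0.22 ± 0.28) had 95% intervals that included 0. HFD controls were 3 female arrays and chow controls 1 female and 2 male, so diet and sex overlap in this comparison.

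**Figure D4:**
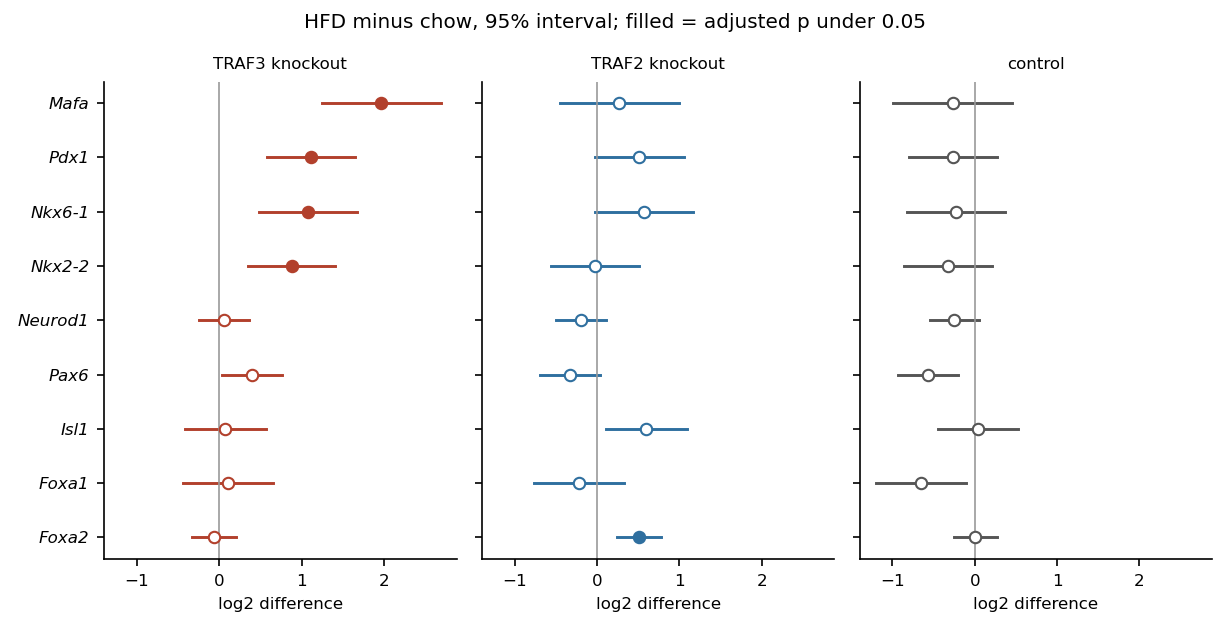
Log2 difference between HFD and chow (horizontal axis) for the 9 transcription factors within TRAF3 knockouts, TRAF2 knockouts and controls, with 95% intervals from limma. Filled points passed an adjusted p of 0.05: Mafa, Pdx1, Nkx6-1 and Nkx2-2 in TRAF3 knockouts, and Foxa2 in TRAF2 knockouts.

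Whether a knockout effect differed between the diets was tested as an interaction. For the TRAF3 knockout, Mafa (2.23 ± 0.48, 95% interval 1.21 to 3.25, adjusted p = 0.0168), Pdx1 (1.38 ± 0.36, adjusted p = 0.0351) and Pax6 (0.96 ± 0.24, adjusted p = 0.032) passed, all with the effect higher on HFD. These 3 of 9 compare with 5.8% of all genes called, 2.52% in that direction and 3.29% in the other. Nkx2-2 (1.20 ± 0.36, adjusted p = 0.0581) and Nkx6-1 (1.30 ± 0.40, adjusted p = 0.0651) were of similar size and did not pass. Foxa2 showed no such difference that could be detected (-0.07 ± 0.18, 95% interval -0.44 to 0.30). The probe set shared by Neurod1 and Cerkl gave 0.69 ± 0.22 (adjusted p = 0.108 by limma over all 41345 probe sets). For the TRAF2 knockout 0 of 9 passed by limma, where 0% of all genes were called. The Foxa2 value there was 0.50 ± 0.18 with a 95% interval of 0.13 to 0.87.

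Genes that the 9 factors are known to control were read beside them. Of 24 measured target genes, 11 fell and none rose in chow TRAF3 knockouts: Ins2, Slc2a2, Slc30a8, Glp1r, Ucn3, Kcnj11, Nnat, Gjd2, Cox6a2, Sytl4 and Ttr. Of all genes, 4.69% fell and 6.33% rose in that comparison. Their 24-gene median was -0.66, against -0.01 for all genes. Slc2a2, through which rodent beta cells take up glucose, lay between 7.99 and 9.05 in chow TRAF3 knockouts, against 10.93 to 11.99 in chow controls (-2.97 ± 0.52, adjusted p = 0.00313). Cox6a2, a subunit of cytochrome c oxidase, was 6.53-fold lower (adjusted p = 0.0104). Ucn3, a peptide that marks mature mouse beta cells, was 4.11-fold lower, and Slc30a8, the zinc transporter of insulin granules, 3.95-fold. Gjd2, the connexin that couples beta cells, was 3.21-fold lower. On HFD 1 of the 24 fell in TRAF3 knockouts, the neuropeptide Y receptor Npy1r (-1.17 ± 0.26, adjusted p = 0.0235), where 0.848% of all genes fell, and the median was 0.01. Between HFD and chow within TRAF3 knockouts 8 of the 24 rose, Slc2a2 by 6.10-fold, where 2.66% of all genes rose. In TRAF2 knockouts 0 of 24 passed against control on either diet.

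Nnat, an imprinted gene that acts in insulin secretion and is a target of Neurod1 stood low in both knockouts. It lay between 6.84 and 7.38 in chow TRAF3 knockouts and 6.59 and 7.68 in chow TRAF2 knockouts, against 8.20 to 8.87 in chow controls. On HFD it lay between 7.81 and 8.01 in TRAF3 knockouts and 7.88 and 8.49 in TRAF2 knockouts, against 8.49 to 9.30 in controls. Averaged over both knockouts and diets Nnat was 2.06-fold lower (-1.04 ± 0.17, adjusted p = 0.00338). Taken singly it passed in chow TRAF3 knockouts (adjusted p = 0.0102) and missed the threshold in chow TRAF2 knockouts (0.127), HFD TRAF3 knockouts (0.0928) and HFD TRAF2 knockouts (0.687).

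Among 24 other factors of islet endocrine cells, 7 fell and none rose in chow TRAF3 knockouts, where 4.69% of all genes fell, with a median of -0.48 against -0.01 for all genes. Mlxipl, which encodes the glucose-responsive factor ChREBP, was 5.17-fold lower (-2.37 ± 0.43, adjusted p = 0.0036). Foxo1, a forkhead factor restrained by insulin signalling, was 1.95-fold lower, the calcineurin target Nfatc2 1.78-fold and the homeodomain factor Mnx1 1.77-fold. Insm1, St18 and Tcf7l2 also fell. On HFD none of the 24 fell in TRAF3 knockouts and 2 rose, both activity-induced genes, where 1.68% of all genes rose. Npas4 lay between 8.24 and 10.76 in HFD TRAF3 knockouts, against 4.54 to 5.72 in HFD controls (4.64 ± 0.74, adjusted p = 0.00341). Nr4a1 lay between 9.76 and 12.08 in HFD TRAF3 knockouts, against 6.93 to 8.60 in HFD controls (3.66 ± 0.67, adjusted p = 0.00789). Both also passed the interaction test between the diets. In TRAF2 knockouts 0 of 24 passed on either diet.

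Of 22 cofactors and partners of the 9 factors, 3 passed in chow TRAF3 knockouts, a share near the 11% of all genes that did, and 0 passed in HFD TRAF3 knockouts. Ldb1, the partner of Isl1, fell by 0.53 ± 0.16 and the corepressor Tle3 fell by 0.84 ± 0.17. Id1, an inhibitor that binds partners of bHLH factors such as Neurod1, rose, reading 5.75 to 6.09 in chow TRAF3 knockouts, against 4.98 to 5.13 in chow controls (0.83 ± 0.16, adjusted p = 0.00564). Of 7 factors of alpha, delta and PP cells, 1 fell on chow, Foxp1 (-0.50 ± 0.14, adjusted p = 0.0273), where 4.69% of all genes fell. Of 9 factors of endocrine and pancreatic progenitors 0 passed in any knockout against control. The endocrine progenitor factor Neurog3 had differences of -0.47 ± 0.30 in HFD TRAF3 knockouts and -0.44 ± 0.30 in chow TRAF3 knockouts, and the duct and progenitor factor Sox9 of 0.73 ± 0.70 and 0.22 ± 0.70 in the same 2 groups.

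**Figure D5:**
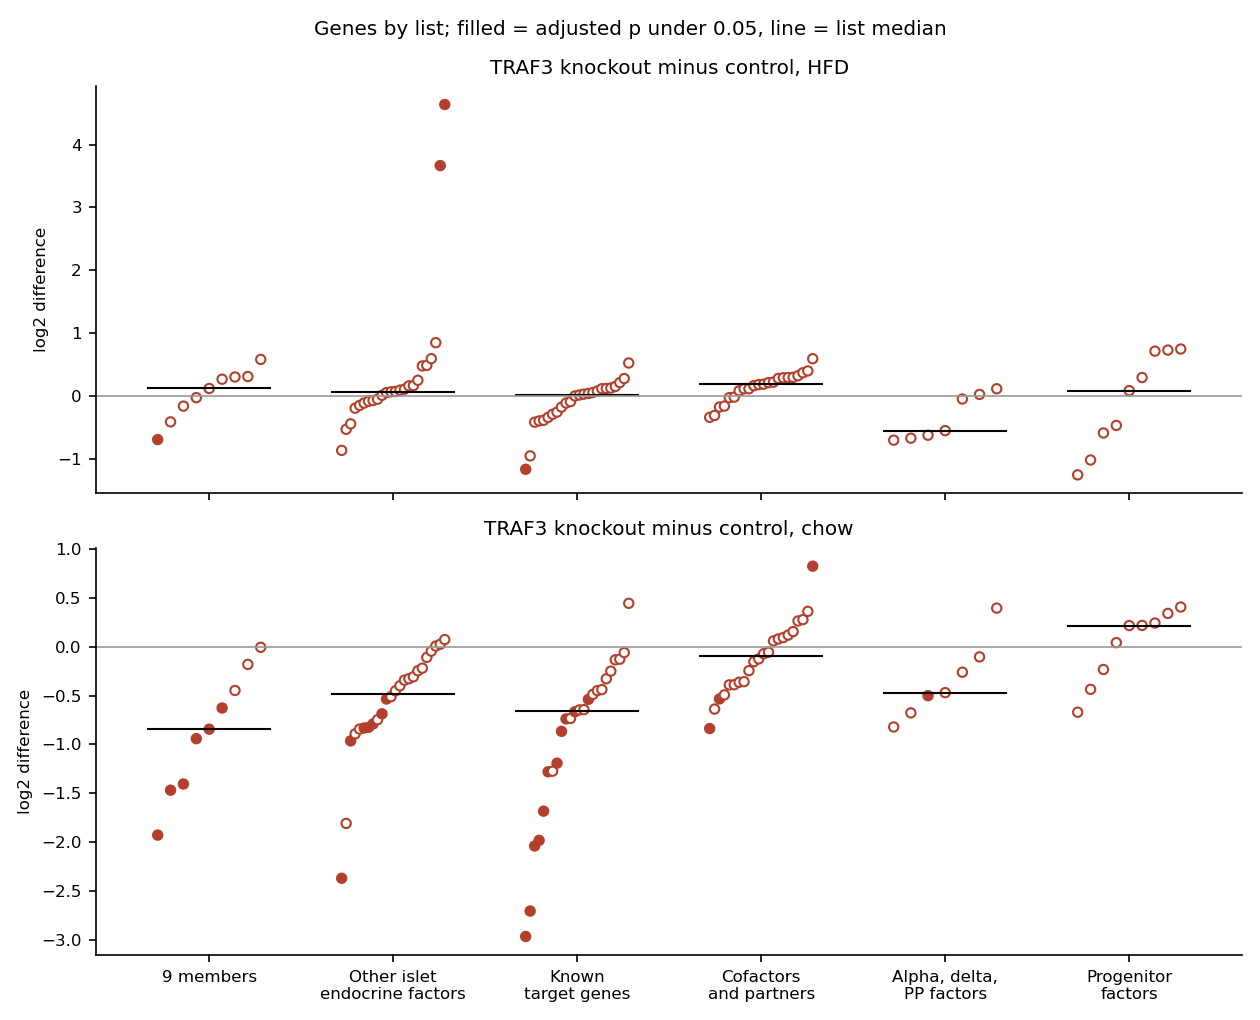
Log2 difference between TRAF3 knockout and control (vertical axis) on HFD (upper panel) and chow (lower panel) for the 9 transcription factors and 5 related gene lists, with 1 point per gene, filled where the adjusted p was under 0.05, and a line at each list's median. On chow the medians of the 9 factors, the other islet factors and the target genes are -0.84, -0.48 and -0.66, and on HFD they are 0.12, 0.07 and 0.01.

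The 9 factors did not all vary together. Over the 18 arrays, which share their processing and include the group differences above, the 36 pairs had Pearson r from -0.599 to 0.946, with a median of 0.425. Mafa with Pdx1 stood at 0.942 and Pdx1 with Nkx6-1 at 0.946, and with group means removed at 0.901 and 0.807. With group means removed Nkx6-1 with Pax6 (0.937) and Nkx6-1 with Nkx2-2 (0.892) were close as well. Isl1 and Foxa2 ran together at 0.838, and Isl1 and Foxa1 ran opposite ways at -0.599. Over the 18 arrays every negative r involved Foxa1, which was dim, or the uncertain Neurod1 probe set. Among the other factors the lowest r was 0.366, for Pax6 with Foxa2. Isl1 ran opposite to the ductal score (-0.765) and Foxa1 ran with it (0.675), and the part of duct cells was not tested. Within groups, the SD of the 3 arrays pooled over groups ranged from 0.13 for Foxa2 to 0.46 for Mafa, where the median gene had 0.22, so a small difference in Foxa2 stood out further from its spread than the same difference in Mafa.

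The genes most like 3 of the factors over the 18 arrays were looked up without regard to function. The nearest to Mafa were the microtubule protein gene Map2 (r = 0.958), the granule membrane gene Ptprn2 (0.956) and Prickle1 (0.953). The nearest to Pdx1 were the calcium-binding protein gene Scgn (0.976), the fatty acid oxidation gene Hadh (0.969) and Gjd2 (0.965). The nearest to Foxa2 were Fam234b (0.938), Slc25a53 (0.919) and the chloride cotransporter gene Slc12a7 (0.905).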

How the data were processed

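Pancreatic islet RNA of 18 samples was measured on single-colour expression arrays. The deposited values are log2 expression after RMA, and RMA and limma are named per the submitters' processing notes, with no version given. The genome build is not given in the sources used here. Of 41345 probe sets, 23521 carry 1 gene symbol in the platform annotation, 1814 several and 16010 none. For each gene with a probe set of its own the one with the highest mean over the 18 arrays was kept, which left 22180 genes. Number of arrays, not read depth, limits the precision.

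From these log2 values 1 model of 6 group means was fitted with limma 3.58.1 in R 4.3.3 (lmFit and eBayes), and 12 contrasts were tested with Benjamini-Hochberg adjustment over all genes. A gene was called at an adjusted p under 0.05, and ± beside a difference is its SE. The procedure was tested on simulated data. The labels do not say that samples are separate animals, so p-values measure the spread between these samples. The members and gene lists were chosen with earlier results of these data known. All 9 members are described. From each other list the genes named with values are at most 6 of those called in a knockout against its control, by size of change, or the first 2 measured where none was called. A gene behind a count of 5 or fewer, and a name given to complete a count, was added after its values were seen. For likeness, the 3 genes with the highest r were taken for Mafa, Pdx1 and Foxa2, leaving out placeholder symbols. Promoters came from RefSeq. A total of 31 alternative settings were tried, 2 of them chosen after seeing the data. The TRAF3 transcript was left out.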

Additional observations from a re-analysis of the deposited data

Results flagged for a closer look

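In the TRAF3 knockouts, 3 of the 9 factors had a knockout effect that differed between the diets by the interaction test. The difference between the effects (HFD minus chow, log2) was 2.23 for Mafa, 1.38 for Pdx1 and 0.96 for Pax6. Mafa passed in all 18 fits that leave out 1 array, Pdx1 in 10 and Pax6 in 11. With the pan-endocrine score as a covariate none of the 3 passed.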

How the results depend on the processing

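Of the 108 differences of the 9 factors, 42 took the opposite sign in at least 1 setting, and none of these values was called on either side. Counts below are factors of 9 that passed. In chow TRAF3 knockouts against control 6 passed, but 3 with the ductal score, 0 with the pan-endocrine score and 5 to 6 without 1 array. In HFD TRAF3 knockouts 1 passed, 0 in the samples compared alone and 1 to 2 without 1 array. In chow TRAF2 knockouts 1 passed, 2 with the pan-endocrine score, 0 with every probe set, in the samples alone or without the lymphocyte-rich arrays, and 0 to 1 without 1 array. In HFD TRAF2 knockouts 0 passed in every setting. Over both knockouts 1 passed, 5 with the acinar and 4 with the pan-endocrine score. For diet, in TRAF3 knockouts 4 passed, 1 in the samples alone, with the ductal or with the pan-endocrine score, 2 without the lymphocyte-rich arrays and 1 to 4 without 1 array. In TRAF2 knockouts 1 passed, 2 with the acinar or pan-endocrine score, 0 with median centring, every probe set, the sex score or the lymphocyte-rich arrays out, and 0 to 1 without 1 array. In controls 0 passed, 1 with the ductal score and 0 to 1 without 1 array. Between the knockouts on chow 1 passed, 0 with every probe set, the samples alone, the ductal or the pan-endocrine score, 4 without the lymphocyte-rich arrays and 0 to 4 without 1 array. On HFD 0 passed, 1 with dim genes left out or with the ductal, acinar, pan-endocrine or sex score, and 0 to 1 without 1 array. For the TRAF3 interaction 3 passed, 5 with quantile normalization, dim genes left out, the acinar score or chow control 3 and HFD TRAF3 knockout 3 left out, 6 with the ductal score, 1 with every probe set, 0 with the pan-endocrine score and 1 to 5 without 1 array. With the replicate number as a block that count was 5. Of 45 same-number pairs, 16 had r over 0.1. The median r was 0.03 in same-number pairs, against -0.03 in other pairs. These values cannot decide whether the numbers pair the samples, since no matching share over 0.1 was taken for other pairs. All 9 factors have 1 probe set of their own, so another probe set gave no value. Genes called in chow TRAF3 knockouts numbered 2445, with 58 to 4425 over the settings, and in HFD TRAF3 knockouts 560, with 144 to 1279. The 2 settings chosen after seeing the data are those that leave out 2 arrays. Beyond fewer samples or genes in a fit, the cause was not tested. The number of arrays limits what could be detected, and Foxa1 was dim.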
